A study of Rattus norvegicus with 2 samples.

Results

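The genes of the FGF, PDGF, EGF and HGF systems comprised 52 of the 15614 genes measured, chosen by their symbol on the array platform. The rule took every Fgf gene with a number, every symbol beginning with Fgfr, Pdgf or Nrg and a number, the EGF receptor family with its ligands, Hgf with its receptor gene Met, and Kitlg with its receptor gene Kit. They were read by 67 probes, 41 genes by 1 probe and 11 genes by 2 or more. The rule itself used no measured value, but it was chosen with earlier results of these data known. By role they were 32 genes of secreted or membrane-bound ligands, 12 genes of receptor tyrosine kinases and 4 intracellular FGF homologous factors. The rest were 2 receptor-like genes without a kinase domain and 2 other genes with a matching symbol, the pseudogene Fgfr1-ps1 and Fgfr1op2.

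The arrays compared 2 rat heart samples (Rattus norvegicus), labelled with Cy3, with a pool called mix1, labelled with Cy5, on 2-colour Agilent slides. The heart material was untreated and had not been cultured. Mix1 held 2 rat cultures, bone marrow cells and primary ear fibroblasts, both untreated and grown with serum, in proportions that the labels do not give. The labels name no strain, age or sex and do not say that the 2 heart samples came from separate animals. The p-values therefore rest on the spread between this pair alone, and that spread may be technical. Mix1 counted as 1 control sample whose own spread did not enter any test, and the tissue of origin and the culture changed together between the channels. Without a dye swap, a dye bias of a probe cannot be told apart from a difference. In RNA of mixed cells, fewer cells of a type and less RNA per cell cannot be told apart.

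Receptor tyrosine kinases of these families sit in the cell membrane, are brought together by their ligands and pass the signal through adaptor proteins to the RAS, MAP kinase and phosphoinositide 3-kinase cascades. FGF, PDGF and EGF receptor ligands drive the growth of fibroblasts in culture. In the heart, neuregulins act on cardiac muscle through ERBB4 and ERBB2, PDGF-B from endothelial cells recruits pericytes through PDGFRB, and several FGFs act in the growth of the developing muscle wall.

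Ratios are given on the log2 scale with heart as numerator and mix1 as denominator, so that 1 is a 2-fold difference and positive values are higher in heart. This direction is likely but not stated in the files: the series' design names mix1 as the control, and the markers of cardiac muscle, 12 in number, lay between 3.79 and 7.23, all positive on both arrays, which is a check and no finding. The ratios of the 2 arrays had a Pearson r of 0.978 across all genes and 0.982 across the 52 genes, a description of values that share the mix1 pool. The arrays stood apart in markers of lung epithelium, whose 10 genes had a median of 0.17 on array 1 and 3.61 on array 2. All 10 fibroblast markers were lower in heart (median -5.22) and all 10 endothelial markers higher (median 3.42).

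The growth factor and receptor genes were called about as often as all genes on the arrays, and more often as at least 2-fold lower in heart. In limma's moderated test with Benjamini-Hochberg adjustment over all genes, 39 of the 52 genes (75%) passed an adjusted p of 0.05, against 72.9% of all genes. Higher in heart were 15, with a background of 31.4%, and lower were 24, with a background of 41.5%. At least 2-fold differences were called for 8 genes higher in heart, where the background was 16.9%, and for 17 lower, where it was 19.5%, or 48.1% of the 52 in either direction against 36.4% of all genes. The median over the 52 genes was -0.17, and -0.09 over all genes. The share called at any size was thus near that of all genes, and the share called at 2-fold or more was above it, without a test. This excess lay among the genes lower in heart, while the share at least 2-fold higher was slightly below that of all genes.

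**Figure D1:**
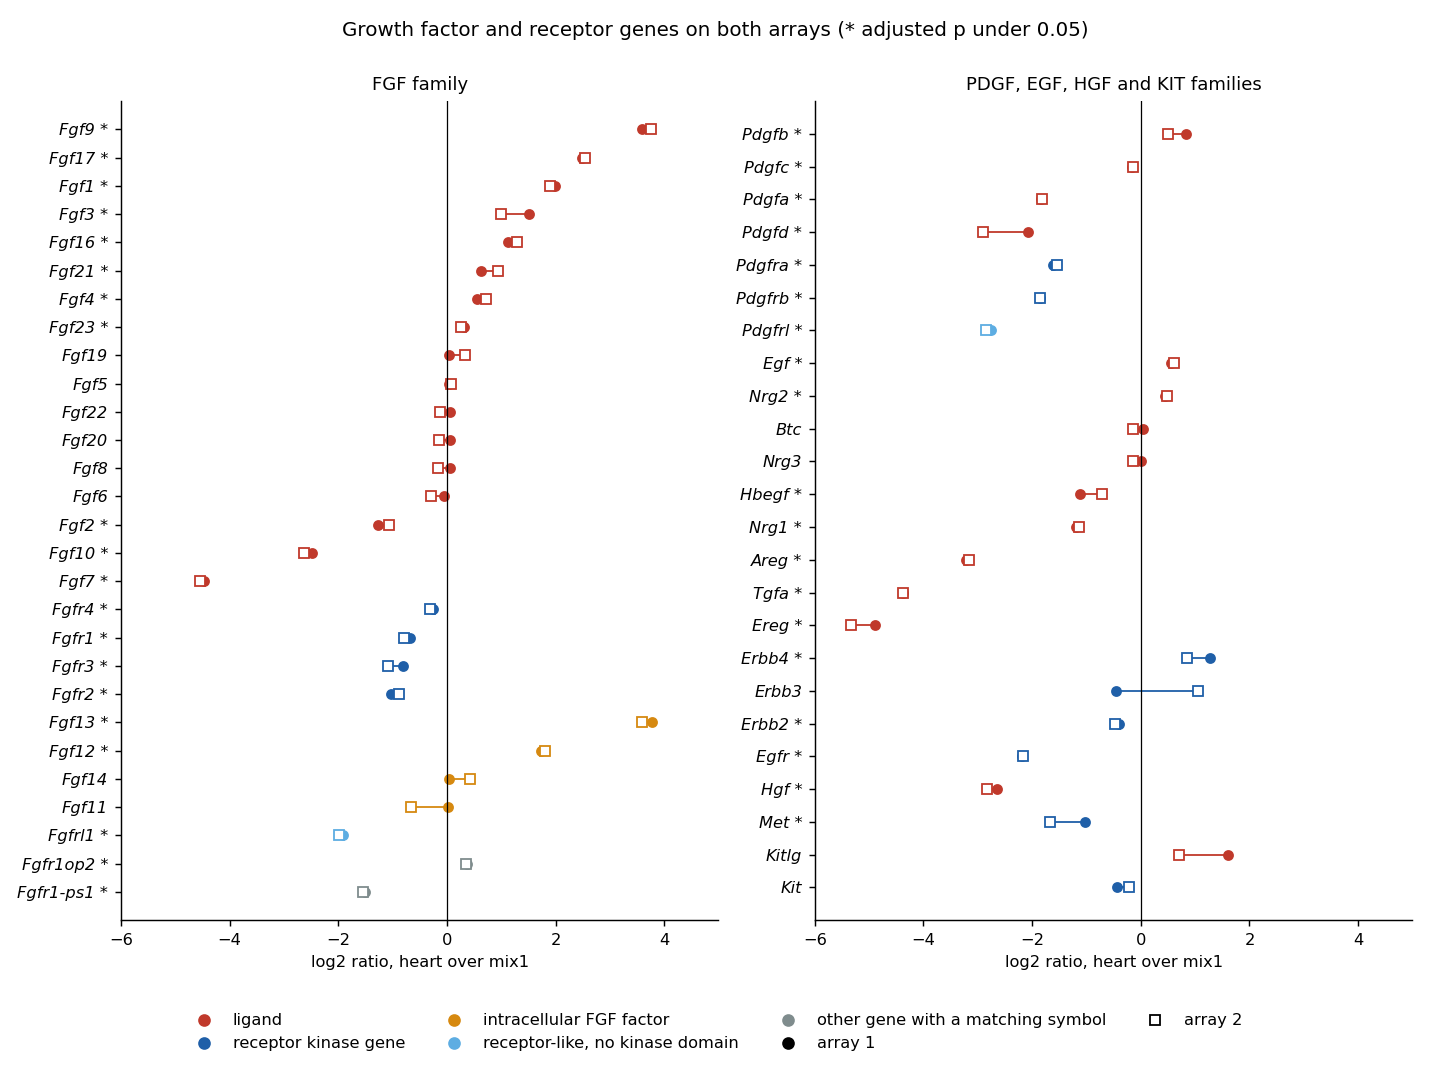
Log2 ratios of heart over mix1 (x axis) for the 52 genes (rows), with array 1 as a filled circle and array 2 as an open square, coloured by role. Ligand genes reach from Ereg near -5.11 to Fgf9 near 3.68, while the 4 FGF receptor genes have means between -0.95 and -0.28.

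Among the 17 genes of secreted FGFs, 8 were higher in heart, 3 were lower and 6 did not pass, so that 64.7% were called beside 72.9% of all genes (31.4% higher and 41.5% lower). Fgf9, which encodes a growth factor known from the development of the heart wall, was the highest ligand gene, at 3.60 on array 1 and 3.76 on array 2. Its mean of 3.68 ± 0.11 (SD, n = 2) is a 12.8-fold difference (limma adjusted p 0.00129). Both arrays gave Fgf9 close to the same value. Fgf16, of the same subfamily and known from cardiac muscle after birth, was at 1.13 and 1.29 (1.21 ± 0.11, adjusted p 0.00403). Fgf20, the remaining member of that subfamily, was at 0.05 and -0.14 and did not pass. The subfamily was thus higher in heart for 2 of its 3 genes. Fgf20 had a pair of values near 0 that was common on these arrays, and whether it was above background is unknown.

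Fgf17, related to the embryonic signal gene Fgf8, was at 2.48 and 2.55, 5.72-fold higher in heart (2.52 ± 0.05, adjusted p 0.00127). Fgf8 itself was at 0.06 and -0.15 and did not pass. The pair had very different ratios within 1 subfamily. Fgf8 had a pair of values near 0 that was common on these arrays, and its signal above background is unknown.

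Fgf1 and Fgf2 encode the acidic and basic FGFs, which lack a classical signal peptide and bind several FGF receptors. They stood on opposite sides. Fgf1 was at 2.00 and 1.90, 3.86-fold higher in heart (1.95 ± 0.07, adjusted p 0.00165). Fgf2 was at -1.28 and -1.06, 2.25-fold lower (-1.17 ± 0.15, adjusted p 0.00609). The 2 probes of Fgf2 were both negative but unequal, at -1.95 and -1.88 for one and at -0.60 and -0.24 for the other, which did not pass on its own (adjusted p 0.0937 among probes).

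The subfamily of Fgf7 was also divided. Fgf7 and Fgf10 encode signals from connective tissue to epithelium. Fgf7, which encodes keratinocyte growth factor, was at -4.46 and -4.55 and thus 22.7-fold lower in heart (-4.51 ± 0.06, adjusted p 0.0012). Fgf10 was at -2.49 and -2.63, 5.89-fold lower (-2.56 ± 0.10, adjusted p 0.00155). Both genes were low on each array, as were the fibroblast markers, whose part in these ratios was not tested. Fgf3, whose product binds the same receptor form, was higher in heart at 1.52 and 1.00 (1.26 ± 0.37, adjusted p 0.0217). Fgf22 was at 0.06 and -0.12 and did not pass.

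Of the Fgf4 subfamily, Fgf4 was slightly higher in heart at 0.56 and 0.73 (adjusted p 0.0118). Fgf5, known for its part in the hair cycle, was at 0.03 and 0.08, and the muscle-associated Fgf6 at -0.06 and -0.29. Neither of these passed, and none of the 3 reached 2-fold.

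The hormone-like FGFs, which act at a distance with klotho proteins as co-receptors, had small positive ratios. Fgf21, a metabolic hormone, was higher in heart at 0.62 and 0.94 (0.78 ± 0.23, adjusted p 0.0227). Fgf23, the phosphate-regulating hormone gene, was at 0.31 and 0.25, a call (adjusted p 0.0192) that was lost when a difference of at least 1.2-fold was required (adjusted p 0.465). Fgf19 was at 0.05 and 0.33 and did not pass (adjusted p 0.222) unless the arrays were centred (0.0487). The klotho gene Kl was at -0.16 and -0.60 and did not pass either (adjusted p 0.138). The related gene Klb was not measured.

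The 4 FGF homologous factors stay inside the cell and bind voltage-gated sodium channels, and 2 of them were higher in heart. Fgf13, the main such factor of the rodent heart, was at 3.78 and 3.59, 12.8-fold higher (3.68 ± 0.14, adjusted p 0.00144). Fgf12 was at 1.72 and 1.80, 3.39-fold higher (1.76 ± 0.05, adjusted p 0.00162). Fgf13 and Fgf9 had the highest means of the 52 genes, 3.68 each. Fgf14 (0.03 and 0.42) and Fgf11 (0.02 and -0.65) did not pass, although Fgf14 did after centring (adjusted p 0.0495).

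The 4 FGF receptor genes were all lower in heart and all by less than 2-fold. Fgfr3 was at -0.81 and -1.08 (-0.95 ± 0.19, adjusted p 0.0124). Fgfr4 was at -0.25 and -0.31, a call (adjusted p 0.0209) that was lost after centring (0.11) and under the 1.2-fold minimum (0.469). The averages of the other 2 receptor genes hide probes that disagreed. Of the 2 Fgfr1 probes, one was at -2.04 and -1.91 and the other at 0.68 and 0.33, around an average of -0.74 ± 0.08 (adjusted p 0.00608). Of the 4 Fgfr2 probes, one was at -4.03 and -3.41, while the others lay between -0.35 and 0.37 on the arrays. Among these others, the probe at 0.03 and -0.14 had a pair of values common on these arrays, and its signal above background is unknown. The Fgfr2 average of -0.95 ± 0.10 (adjusted p 0.0049) thus owes its size to 1 probe, and the median of the probes was -0.19 (adjusted p 0.0683). Both genes are known for splice forms that differ in the ligand-binding domain, and which form each probe reads is not stated in the annotation used.

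Genes near the receptor symbols complete the FGF group. Fgfrl1, whose product binds FGFs without a kinase domain, was 3.86-fold lower in heart, at -1.90 and -1.99 (-1.95 ± 0.06, adjusted p 0.00155). The probe of the pseudogene Fgfr1-ps1, at -1.51 and -1.55, may share sequence with Fgfr1 and is uncertain for that reason. Fgfr1op2 shares only its name with the receptor and was at 0.37 and 0.36, a small call (adjusted p 0.00983) that was lost under the 1.2-fold minimum (0.0647).

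**Figure D2:**
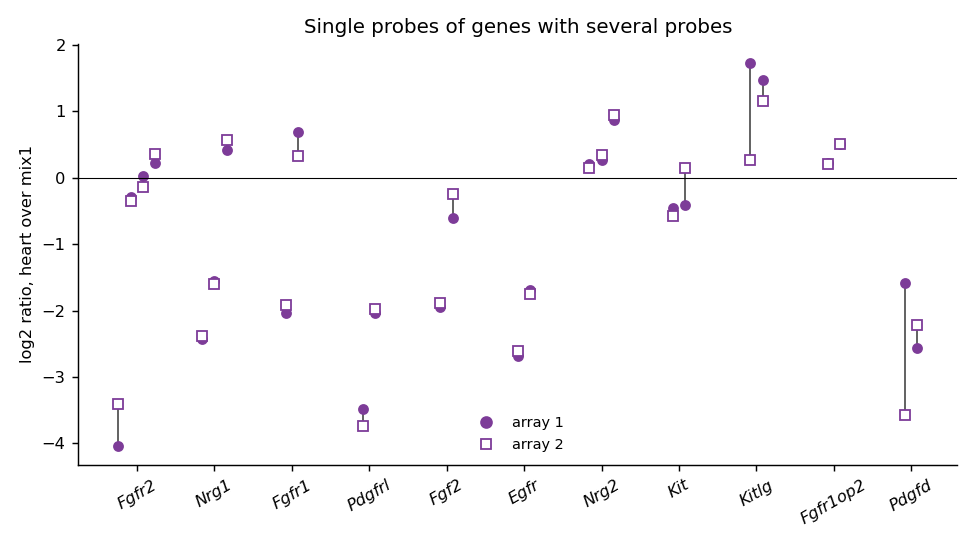
Log2 ratios of heart over mix1 (y axis) of each probe where a gene had several (11 genes), ordered by how far the probes lie apart, with array 1 as a filled circle and array 2 as an open square. Probes of Fgfr2, Nrg1 and Fgfr1 lie on both sides of 0, and 1 probe each of Pdgfd and Kitlg differs by over 1 between the arrays.

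PDGF genes were lower in heart for both receptors and 3 of 4 ligands. Pdgfra, which encodes the receptor of fibroblast-lineage cells, was at -1.61 and -1.54, 2.98-fold lower (-1.57 ± 0.05, adjusted p 0.00178). Pdgfrb, the receptor gene of pericytes and fibroblasts, was at -1.85 and -1.86, 3.62-fold lower (-1.85 ± 0.01, adjusted p 0.00132). The 2 receptor genes had nearly equal ratios on each array. Beside them stand the fibroblast markers, 10 of 10 lower between -8.36 and -3.32, and the pericyte markers, of which 4 of 5 measured were higher and 1 lower, between -0.28 and 5.42. Their part in the receptor ratios was not tested.

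Pdgfa, whose product binds the alpha receptor, was at -1.84 and -1.83, 3.57-fold lower in heart (-1.83 ± 0.01, adjusted p 0.00133). Pdgfd, whose product binds the beta receptor after cleavage, was at -2.07 and -2.90, 5.61-fold lower (-2.49 ± 0.59, adjusted p 0.0146). Its 2 probes were negative on each array but 1 of them differed between the arrays, at -1.58 and -3.58, and did not pass alone (adjusted p 0.0703). Pdgfb, the ligand gene expressed by endothelial cells, was the only PDGF gene higher in heart, at 0.84 and 0.50 (0.67 ± 0.24, adjusted p 0.0335), and it did not pass under the 1.2-fold minimum (0.0623). Pdgfc was at -0.17 and -0.15, a call (adjusted p 0.0448) lost after centring (0.634) and under that minimum. The receptor-like gene Pdgfrl was 6.98-fold lower in heart at -2.75 and -2.85 (-2.80 ± 0.07, adjusted p 0.00128), with 1 probe at -3.48 and -3.73 and the other at -2.03 and -1.97.

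Several ligand genes of the EGF receptor had large negative ratios. Ereg, which encodes epiregulin, had the lowest mean of the 52 genes, at -4.90 and -5.33, 34.7-fold lower in heart (-5.11 ± 0.31, adjusted p 0.00199). Tgfa was at -4.38 and -4.37, 20.8-fold lower (-4.38 ± 0.003, adjusted p 0.0012). Areg, the amphiregulin gene, was at -3.21 and -3.17, 9.13-fold lower (-3.19 ± 0.03, adjusted p 0.0012). These 3 genes were low on both arrays, and their receptor gene Egfr was lower as well. Egfr was at -2.19 and -2.17, 4.54-fold lower in heart (-2.18 ± 0.01, adjusted p 0.00124), and its 2 probes, with means 0.92 apart, were both negative on each array.

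The remaining ligand genes of this receptor had smaller ratios. Hbegf was also lower in heart, at -1.12 and -0.71 (-0.91 ± 0.29, adjusted p 0.0254). Egf itself was slightly higher at 0.56 and 0.60 (0.58 ± 0.03, adjusted p 0.00524). Btc, the betacellulin gene, was at 0.04 and -0.14 and did not pass. In the GRCr8 gene table Btc, Areg and Ereg follow each other with no protein-coding gene between them, so that 1 gene of this row had a ratio near 0 beside 2 with large negative ratios. The values of Btc were also a pair common on these arrays, and its signal above background is unknown. Other genes of the set also lie next to each other. Kit (-0.43 and -0.21) lies next to Pdgfra (-1.61 and -1.54). Fgf3, Fgf4 and Fgf19 lie in a row and were all positive on both arrays, with means of 1.26, 0.65 and 0.19. Fgf6 and Fgf23, also adjacent, had means of -0.17 and 0.28.

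Neuregulin genes were divided, and so were the probes of Nrg1. Nrg1, whose product is known as an endothelial signal to cardiac muscle, averaged -1.19 on array 1 and -1.14 on array 2 (-1.16 ± 0.04, adjusted p 0.00217). Of its 3 probes, 2 were negative, at -2.42 and -2.38 and at -1.56 and -1.60, and 1 was positive at 0.42 and 0.57 (adjusted p 0.0204 among probes). The direction for Nrg1 therefore depends on the probe; this gene too has many known isoforms. Nrg2 was slightly higher in heart at 0.45 and 0.48 (adjusted p 0.00703), and Nrg3 was at 0.00 and -0.14 and did not pass.

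Erbb4, the neuregulin receptor gene of cardiac muscle, was the only receptor gene higher in heart. It was at 1.28 and 0.86, 2.10-fold higher (1.07 ± 0.30, adjusted p 0.0206). Its partner gene Erbb2, whose product has no known ligand of its own, was at -0.39 and -0.47 (-0.43 ± 0.05, adjusted p 0.011). Erbb3, a neuregulin receptor gene whose kinase has little activity, was the only one of the 52 genes that differed by at least 2-fold between the arrays, at -0.46 and 1.05, and it did not pass (adjusted p 0.635). Of the 10 lung epithelium markers, 8 also differed by at least 2-fold between the arrays. Epcam, for one, was at -1.02 and 2.69. The part of these markers in the Erbb3 ratio was not tested.

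Hgf and Met were lower in heart together. Hgf, the hepatocyte growth factor gene expressed by mesenchymal cells, was at -2.66 and -2.84, 6.71-fold lower (-2.75 ± 0.13, adjusted p 0.00172). Met, its receptor gene, was at -1.03 and -1.67, 2.54-fold lower (-1.35 ± 0.45, adjusted p 0.0281). Both signs held on each array, with a wider spread for Met.

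Kitlg and Kit, the stem cell factor gene and its receptor gene, did not pass. Kitlg was at 1.60 and 0.70, 2.23-fold higher in heart on average (1.15 ± 0.64, adjusted p 0.0686), and Kit was at -0.43 and -0.21 (-0.32 ± 0.16, adjusted p 0.0617). The Kitlg probe with the smaller difference between the arrays, at 1.48 and 1.15, passed alone (adjusted p 0.0106 among probes), while the other, at 1.73 and 0.26, did not (0.209). Kitlg passed after centring as well (adjusted p 0.000757). The Kit probe at -0.46 and -0.58 passed alone (adjusted p 0.0151 among probes), and the other, at -0.41 and 0.15, did not (0.594). Mast cells are known to carry KIT, and 5 of 7 measured mast cell markers were higher in heart, with the chymase gene Cma1 at 4.15 on average and the range of all 7 from -0.06 to 4.15. Kit itself was below 0 on both arrays, and the part of these cells in its ratio was not tested.

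Ligand genes covered a wider range than receptor genes, and the receptor median was lower. Of the 32 ligand genes, 11 were higher in heart, 12 lower and 9 did not pass. Of the 12 receptor genes, 1 was higher, 9 were lower and 2 did not pass, and 10 of the 12 were negative on both arrays. In all, 71.9% of ligand genes and 83.3% of receptor genes were called, beside 72.9% of all genes (31.4% higher and 41.5% lower). The ligand median was 0.05 on array 1 and -0.14 on array 2, on either side of 0, and the receptor median was -0.75 and -0.84. Over both arrays the medians were -0.05 for ligand genes, -0.84 for receptor genes and -0.09 for all genes. The ligand median lay between Fgf8 and Fgf20, each with the pair of values near 0 that was common on these arrays. Whether either gene was above background is unknown, which limits what the ligand median shows. Ligand genes spanned 8.79 log2 units and receptor genes 3.25, with 6 ligand genes above the highest receptor gene and 7 below the lowest. Genes are not replicates, and no test was made of this difference.

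The order of the medians was not the same in each family. Among FGFs, 14 of 17 ligand genes lay above the highest of the 4 receptor genes and 3 below the lowest, with medians of 0.19 for ligand genes and -0.84 for receptor genes. This order holds for averages over probes, and the 14 include the 6 FGF ligand genes that did not pass. Among them, Fgf8, Fgf20 and Fgf22 had the pair of values near 0 that was common on these arrays. The highest receptor gene was Fgfr4 at -0.28, a call lost after centring and under the 1.2-fold minimum. Single probes ranged from -1.98 to 0.51 for Fgfr1 and from -3.72 to 0.29 for Fgfr2. Among EGF family genes the ligand median of -0.91 lay below the receptor median of -0.07, which was -0.42 on array 1 and 0.19 on array 2 and so moved with Erbb3. PDGF ligand genes had medians of -1.01 on array 1 and -0.99 on array 2, and the 2 PDGF receptor genes -1.73 and -1.70. The ligand gene had the lower ratio for HGF and the higher one for KIT.

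**Figure D3:**
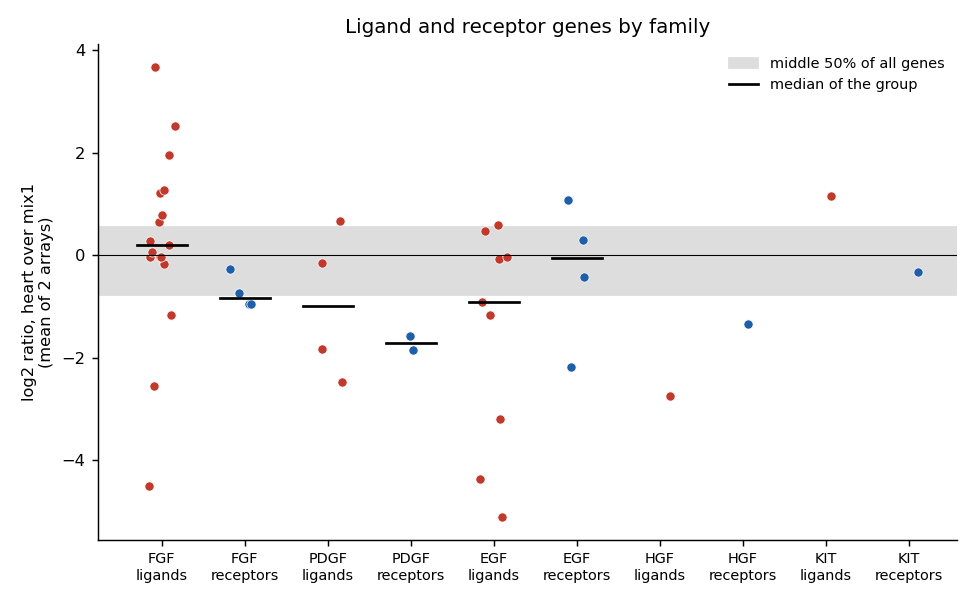
Mean log2 ratio of heart over mix1 on the 2 arrays (y axis) for each ligand and receptor gene by family, with the group median as a bar and the middle 50% of all genes (-0.78 to 0.54) shaded. As averages over probes, FGF receptor genes lie close together below 0, although single probes of Fgfr1 and Fgfr2 lay on both sides of 0. FGF ligand genes lie on both sides of these averages, and in the EGF family the lowest points are ligand genes.

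Promoter sequences of the extreme ligand and receptor genes are given to show how far the classes differ in base composition, a property that the choice of genes did not use. They are the 250 bases before the start of the highest and lowest ligand and receptor genes among the 41 of 52 with a promoter entry in GRCr8. Ereg, the ligand gene with the lowest ratio, was among the 11 without an entry. Capitals mark TATAAA or GGGCGG on either strand. TGANTCA and TGACGTCA were also searched on both strands and were not in these 4 sequences, and no motif overlapped another in them.
Fgf9 (chr15:36327108-36327357, + strand): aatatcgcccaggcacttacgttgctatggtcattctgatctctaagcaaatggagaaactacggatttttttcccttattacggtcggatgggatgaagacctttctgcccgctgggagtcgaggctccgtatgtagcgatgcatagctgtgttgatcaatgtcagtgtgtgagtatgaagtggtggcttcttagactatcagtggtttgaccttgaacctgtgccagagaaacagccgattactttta
Fgf7 (chr3:133735377-133735626, + strand): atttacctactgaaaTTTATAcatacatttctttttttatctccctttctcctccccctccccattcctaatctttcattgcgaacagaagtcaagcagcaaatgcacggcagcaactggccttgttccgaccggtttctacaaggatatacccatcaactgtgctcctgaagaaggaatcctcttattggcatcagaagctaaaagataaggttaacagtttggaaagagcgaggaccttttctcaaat
Erbb4 (chr9:78045607-78045856, - strand): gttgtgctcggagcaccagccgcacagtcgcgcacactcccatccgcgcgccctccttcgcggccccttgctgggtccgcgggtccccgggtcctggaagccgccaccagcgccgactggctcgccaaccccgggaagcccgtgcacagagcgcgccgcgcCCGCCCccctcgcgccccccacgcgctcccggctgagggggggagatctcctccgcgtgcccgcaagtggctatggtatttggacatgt
Egfr (chr14:95378376-95378625, + strand): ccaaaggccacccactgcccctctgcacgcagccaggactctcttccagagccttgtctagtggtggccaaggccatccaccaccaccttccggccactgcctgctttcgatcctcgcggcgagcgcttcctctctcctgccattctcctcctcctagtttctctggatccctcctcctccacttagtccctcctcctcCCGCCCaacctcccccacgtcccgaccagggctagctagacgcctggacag

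The ligand promoters shown were poorer in G and C, at 46.0% for Fgf9 and 41.6% for Fgf7, than those of Erbb4 (73.6%) and Egfr (63.6%). Over all genes of the set with an entry the median was 60.6% for 26 ligand promoters and 69.2% for 9 receptor promoters, against 57.6% for the 12708 measured genes with an entry. GGGCGG, the core of the GC box, occurred in 15 ligand promoters (57.7%) and 7 receptor promoters (77.8%), in 48.3% of the promoters of measured genes and in 32.4% of all 27457 promoters. TATAAA occurred in 6 ligand promoters (23.1%) and 0 receptor promoters, in 10.5% of those of measured genes and in 13.1% of all. TGANTCA, the AP-1 motif, occurred in 0 ligand promoters and 1 receptor promoter, in 5.37% of those of measured genes and in 6.36% of all. TGACGTCA, the cyclic AMP response element, occurred in 1 ligand promoter and 0 receptor promoters, in 2.31% of those of measured genes and in 1.70% of all. The high and the low ligand gene shown were alike in composition, and a match or its absence describes only these letters in this window.

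Of 119 further genes of these pathways, listed by role, 103 were measured, and 25 were higher in heart and 54 lower (76.7% called, near the 72.9% of all genes). Their median was -0.36. The counts by role that follow stand beside 31.4% of all genes called higher and 41.5% called lower. The list was not chosen independently of these samples, so its counts are a description.

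Genes of transcription factors and other immediate targets of the MAP kinase cascade gave the lowest median, -1.53. Of 19, 15 were lower and 3 higher (94.7% called, beside 72.9% of all genes). Fos (-5.99 and -5.90) and Fosl1 (-5.76 and -5.69), which encode AP-1 subunits, were lowest. Etv4 (-2.29 ± 0.40, SD, n = 2) and Etv5 (-1.51 and -1.54), known as targets of FGF signalling, were lower too, while their relative Etv1 was higher in heart at 0.79 and 0.80. Srf, the serum response factor gene, was higher at 0.56 and 0.57.

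Feedback inhibitors of the cascade were lower in heart for 15 of 21 measured genes and higher for 2 (81.0% called), with a median of -0.58. The phosphatase gene Dusp1 was at -3.71 and -3.63, and the RAS inhibitor gene Spred1 at -2.16 and -2.11. All 4 Sprouty genes were lower, between -0.62 for Spry4 and -0.34 for Spry3. Higher in heart were the ubiquitin ligase gene Cblc, at 2.70 and 2.75, and Lrig1, which encodes a negative regulator of EGF receptors, at 0.80 and 0.78.

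Adaptor genes were closer to the middle, with 9 of 18 higher, 5 lower (77.8% called) and a median of 0.09. Shc1, a docking protein of most of these receptors, stood apart at -3.87 and -3.91, and Grb10 was at -1.45 and -1.51. The highest were Sos2, a RAS exchange factor gene (0.91 and 0.93), and the phosphatase gene Ptpn11 (mean 0.71). No adaptor gene was called at least 2-fold higher.

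Genes of the kinase cascade had a median of -0.08, with 5 of 21 higher and 8 lower (61.9% called, below the 72.9% of all genes). The regulatory subunit gene Pik3r1 was higher in heart at 1.31 and 1.56, and Rps6ka2 at 0.98 and 1.18. Src was lowest among those called, at -2.36 and -2.62, followed by Pik3r2 at -0.71 and -0.74. Most of the cascade lay within 2-fold of mix1.

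Co-receptor and ligand-processing genes were lower in heart for 11 of 24 and higher for 6 (70.8% called, near the share of all genes), with a median of -0.35. Flrt2, whose product binds FGF receptors, was at -6.88 and -4.87, and the syndecan gene Sdc1 at -4.19 and -4.03. Hpn, which encodes hepsin, a protease that activates HGF, was higher in heart at 2.01 and 2.40, and Fgfbp3, whose product carries FGFs, at 1.78 and 1.83. Adam17, the main sheddase of EGF receptor ligands, was lower at -1.32 and -1.30. It was named after its value was seen, as were Kl, the Sprouty genes and the Etv4 and Etv5 pair.

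**Figure D4:**
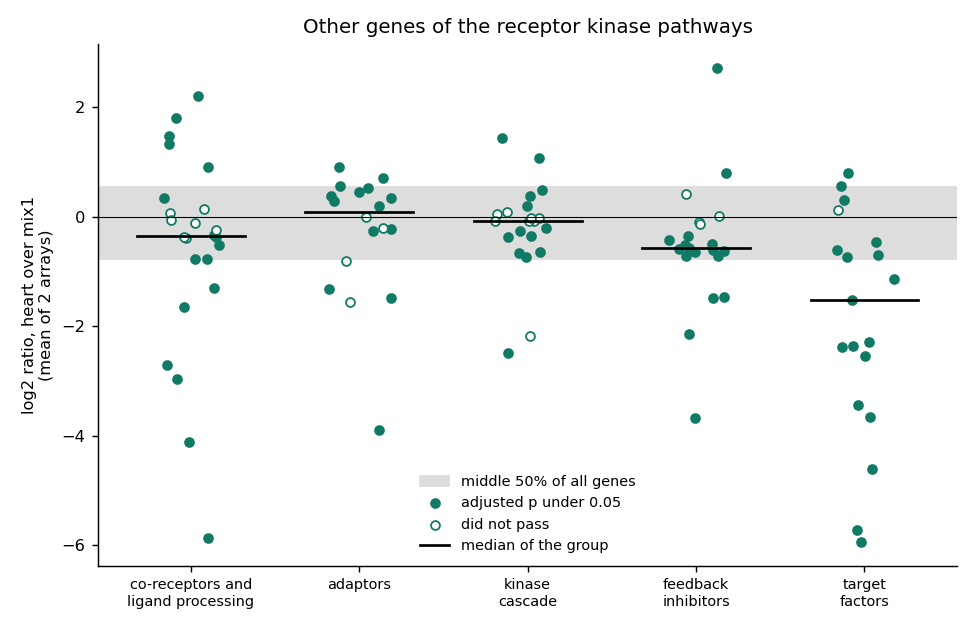
Mean log2 ratio of heart over mix1 on the 2 arrays (y axis) of the 103 measured pathway genes by role, filled where the adjusted p was under 0.05, with the median of each role as a bar and the middle 50% of all genes shaded. Target factors have the lowest median, -1.53, and adaptors and the kinase cascade lie near 0.

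Some ratios near 0 came in a common pair of values. Of all probes, 10.2% lay between -0.1 and 0.1 on array 1 and between -0.2 and -0.1 on array 2, against 0.922% in the mirrored window from 0.1 to 0.2 on array 2. The array medians over probes were 0.01 and -0.14. Fgf8, Fgf20, Fgf22, Btc and Nrg3 all had their values in that window, and none passed. An Fgfr2 probe, at 0.03 and -0.14, lay there too. Spot intensities were not used here, so whether these genes and that probe were above background in either channel is unknown.

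Across the arrays the 52 genes had a median absolute difference of 0.15, against 0.08 over all genes, and a 2-fold or larger gap between arrays was seen for 1 of them (1.92%) and for 2.16% of all genes. Besides Erbb3, the widest gaps were those of Kitlg (1.60 and 0.70) and Pdgfd (-2.07 and -2.90). By array 1 alone, with no test, 9 genes were at or above a 2-fold excess in heart and 19 at or beyond a 2-fold deficit; array 2 alone gave 8 and 18.

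**Figure D5:**
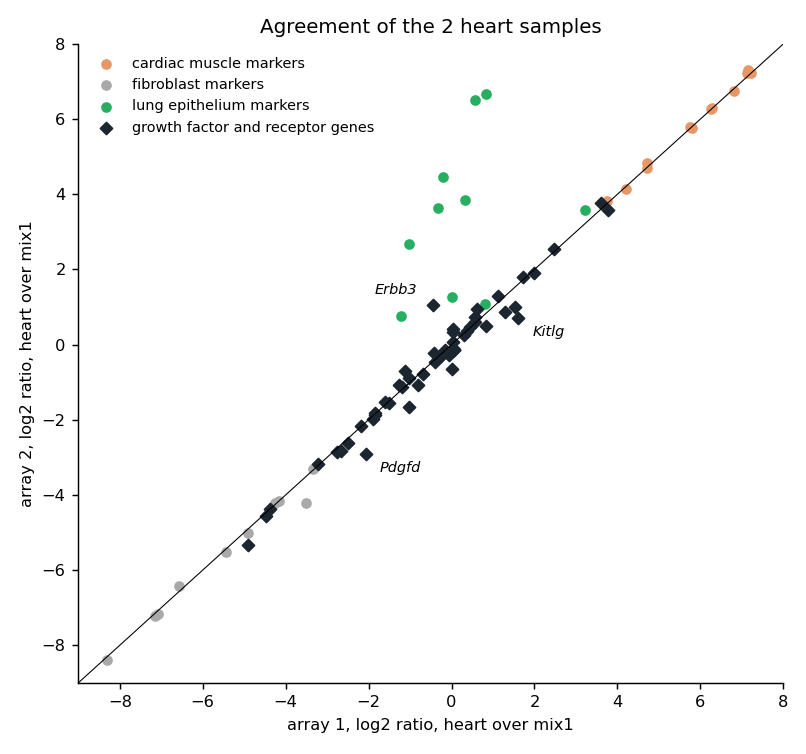
Log2 ratios of heart over mix1 on array 1 (x axis) and array 2 (y axis) for the 52 genes and for markers of cardiac muscle, fibroblasts and lung epithelium, with the line of equality. Lung epithelium markers lie above the line, Erbb3 lies above it as well, and the next widest gap among the growth factor and receptor genes is that of Kitlg (1.60 and 0.70).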

How the data were processed

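Two-channel arrays of 2 heart samples against the mix1 pool were used, 1 table with 40012 probes and no missing value. The authors deposited 1 log ratio per probe and array, made with Agilent Feature Extraction per the submitters' processing notes; its version and how it corrected background and dyes were not given in the sources used here. They were read as deposited log2 ratios, a base inferred from their range (-11.10 to 10.42). Were they natural logs, all log2 ratios would be larger by 1 common factor. No intensities were used, so signal over background is unknown, and precision is limited by having 2 arrays.

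The platform annotation named 20417 probes with a single symbol and left 19595 unnamed; accessions of 16987 matched the GRCr8 gene table, which updated 2301 symbols. Log2 values of probes with 1 symbol were averaged. An intercept was fitted with limma 3.58.1 in R 4.3.3 (lmFit, eBayes) and tested against 0, two-sided, over all 15614 genes, with 1 residual degree of freedom before moderation and prior degrees of freedom of 1.24. The fit was also run on data simulated from its own fitted variances. Such data cannot show a dye bias or the effect of the shared pool. Every gene of the set is given; of the pathway list, the 2 highest and 2 lowest called genes of each role. The genes, lists and tests were chosen with earlier results of these data known. Roles were assigned by hand after the files were read. Alternatives were centring, natural logs, other probe rules, unchanged symbols, robust moderation, a 1.2-fold minimum, single probes and each array alone. Protein sequences were not used here.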

Additional observations from a re-analysis of the deposited data

How the results depend on the processing

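Counts of called ligand, receptor and all 52 genes stayed within 1.5 times of those reported under the 8 alternatives tested (centring, natural logs, the probe with the smallest difference, the median of probes, platform symbols, robust moderation, the 1.2-fold minimum and all probes of a gene past the test). The exception among counts was the pathway list, where 13 in place of 25 genes were higher when every probe had to pass. The receptor median of -0.84 became -0.73 after centring, -1.21 read as natural logs, -0.73 with the probe of smallest difference, -0.58 with the median of probes and -0.95 with Fgfrl1 and Pdgfrl counted as receptors, a choice made after seeing the data; each array alone gave -0.84 to -0.75. The ligand median was 0.06 after centring and so changed sign, as it did between the arrays. It lay between Fgf8 and Fgf20, whose signal above background is unknown. Centring moved the median of all genes by 0.07 on array 1 and 0.15 on array 2. Single probes reversed 3 genes: Fgfr1 (0.51), Fgfr2 (0.29) and Nrg1 (0.50). The causes were not tested. With each array alone no test could be made. No paired analysis was possible because there was 1 group of samples.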
